A study of Mus musculus with 4 samples.

Results

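The Zbtb and Klf genes of mouse liver encode zinc finger transcription factors, and their messenger RNA was compared between WT livers and livers in which Ddi2 was deleted. Members were the protein-coding genes whose mouse symbol was Zbtb or Klf followed by a digit, with Klf9 left out. The rule used symbols and no measured value. It gave 57 genes, 41 of them Zbtb and 16 Klf, among 48709 gene identifiers in the count files. All 41 Zbtb symbols were kept, including Zbtb8os, which encodes the archease cofactor of tRNA ligation and no zinc finger factor.

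A ZBTB protein joins an N-terminal BTB (also called POZ) domain, through which it pairs with other proteins and draws in corepressors such as NCOR1 and BCOR, to C-terminal C2H2 zinc fingers that read DNA. Most of those studied repress transcription. A KLF protein reads GC-rich and CACCC-type sites in promoters through its C-terminal zinc fingers and may activate or repress, depending on its N-terminal part. In liver, ZBTB20 is known as the factor that keeps the fetal gene Afp silent after birth, KLF15 for amino acid breakdown and glucose production, and KLF10 as a clock- and glucose-responsive repressor.

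The study asked which genes depend on DDI2, an aspartic protease that activates the CNC-bZIP factor NRF1 by cleavage. From a gene ontology analysis it reported that DNA-binding and transcriptional regulators made up many of the affected genes. Poly(A) RNA from the liver of untreated adult C57BL/6 mice was sequenced in 4 libraries. The 2 WT libraries came from littermates with the floxed Ddi2 allele on both chromosomes and no Cre, and the 2 DDI2-KO libraries from mice with the same floxed alleles and Cre driven by the albumin promoter. All 4 mice thus carried the floxed allele, and the albumin promoter limits the deletion to hepatocytes and their kin, so other liver cells keep Ddi2. The sex of each mouse and the batch of each library were not given in the sources used here. The libraries within a group were labelled as replicates, and p-values measure the spread between those libraries only.

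Between 22501208 and 34109018 reads fell on genes in each library, both DDI2-KO libraries being the smaller, so that 3 reads corresponded to 0.0880 to 0.133 CPM (reads per 1000000 reads on genes). Levels below are CPM scaled by TMM factors, and a log2 fold change is that of DDI2-KO over WT from the fit of 13699 genes, with its standard error (SE). The whole Ddi2 gene held 4749 and 3812 reads in the WT libraries against 4068 and 3777 in the DDI2-KO libraries, which checks nothing about the deletion because the counts do not separate exons. Hepatocyte marker genes summed to 163358 to 185139 CPM in WT and 153281 to 155832 CPM in DDI2-KO, so all 4 libraries held the labelled tissue. The DDI2-KO libraries differed from each other with the GC content of the transcript, and the values for the members are given with the comparison of families below.

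Of the 41 Zbtb genes, 38 had enough reads to be tested, and 2 of these, Zbtb26 and Zbtb20, fell in DDI2-KO at an adjusted p below 0.05 by edgeR. That is 5.26% of the tested Zbtb genes, where 1.2% of all genes tested were called lower and 2.53% were called in either direction. None was called higher, where 1.33% of all genes were. At an unadjusted p below 0.05 edgeR had 5 Zbtb genes lower and 0 higher, where 11.5% and 12% of all genes were, and at an adjusted p below 0.10 it had 4 lower and 0 higher, where 4.54% and 4.81% of all genes were. DESeq2 called 2 Zbtb genes, with 7.38% of all its genes called, and limma-voom and limma-trend called 0, with 0.993% and 1.01% of all genes called. Because whole liver was sequenced, fewer cells of a type and less RNA per cell cannot be told apart in any of these values. The 3 Zbtb genes left untested were Zbtb9 with 0 reads in every library, Zbtb32 with 2, 0, 3 and 0 reads in WT 1, WT 2, DDI2-KO 1 and DDI2-KO 2, and Zbtb8b with 3, 4, 0 and 0.

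**Figure D1:**
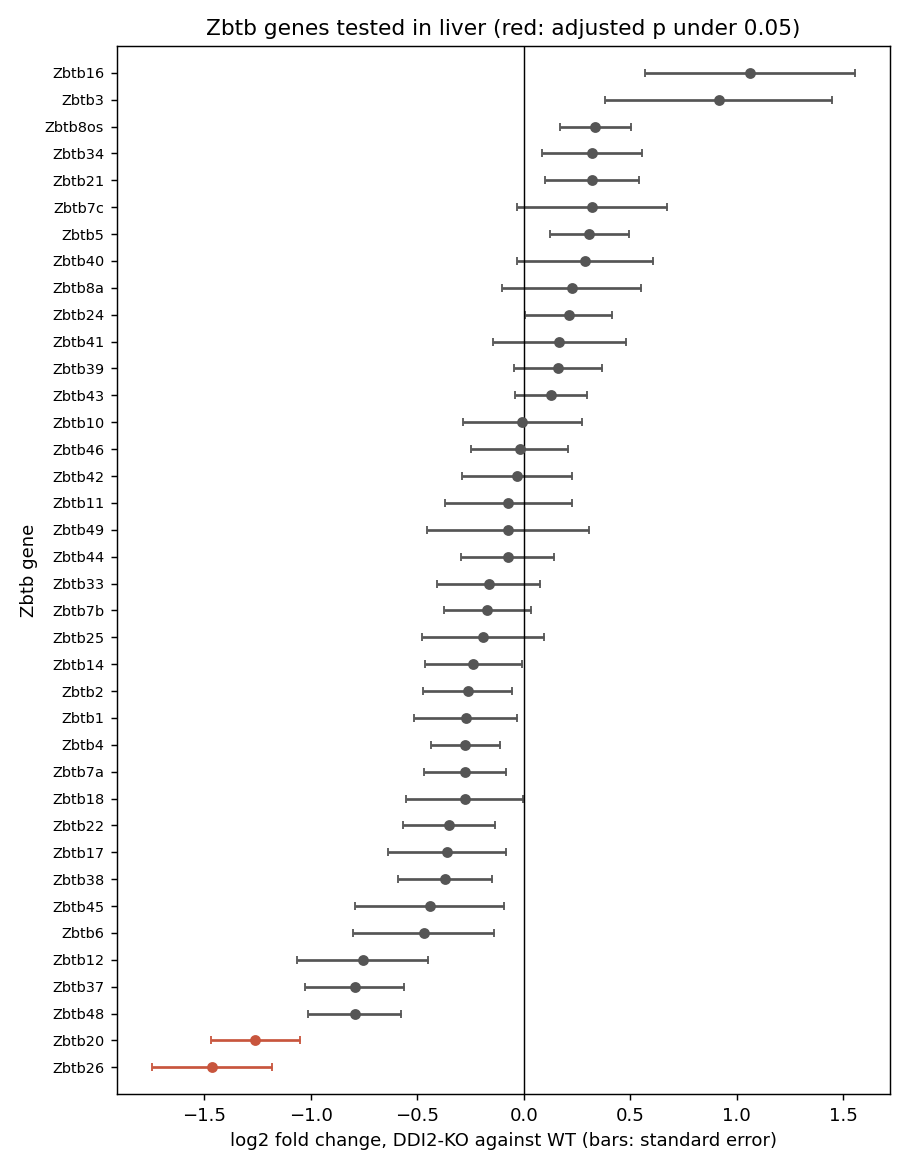
Log2 fold change of DDI2-KO over WT for each of the 38 tested Zbtb genes, ordered by size, with bars of 1 standard error. Red points mark the 2 genes past the threshold, Zbtb26 at -1.46 and Zbtb20 at -1.26, and the values of the others run up to 1.06 for Zbtb16, whose bar is among the widest.

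Zbtb20, which encodes the repressor of Afp, lies on the plus strand of chromosome 16 (GRCm38, 42875881 to 43642602). Its level was 62.3 and 43.6 CPM in the WT libraries and 23.7 and 20.5 CPM in the DDI2-KO libraries, from 2095, 1348, 613 and 472 reads. Both DDI2-KO libraries lay below both WT libraries, and the gap between the groups was wider than that between the WT mice. The means were 53.0 ± 13.2 CPM in WT and 22.1 ± 2.22 CPM in DDI2-KO (SD, n = 2 each), and the log2 fold change was -1.26 (SE 0.21, adjusted p = 0.0338 by edgeR). Corrected for GC content and transcript length by offsets, it was -0.78 and no longer passed (adjusted p = 0.0873). Of the fits that left out 1 library, the one without WT 2 kept the call (adjusted p = 0.0135), and those without WT 1, DDI2-KO 1 and DDI2-KO 2 gave 0.114, 0.0614 and 0.0696.

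Zbtb26, for which few functions have been described, was the Zbtb gene with the lowest log2 fold change. It lies on the minus strand of chromosome 2 (37432168 to 37443135). Its level was 4.91 and 4.89 CPM in WT against 1.47 and 2.09 CPM in DDI2-KO, from 165, 151, 38 and 48 reads. The WT libraries were nearly equal, and the DDI2-KO libraries were both well below them. The means were 4.90 ± 0.0144 CPM in WT and 1.78 ± 0.439 CPM in DDI2-KO (SD, n = 2 each), for a log2 fold change of -1.46 (SE 0.28, adjusted p = 0.0438 by edgeR). The call was lost without robust estimation of the spread (adjusted p = 0.057) and in 3 of the 4 fits that left out a library, those without WT 1, WT 2 and DDI2-KO 1 (0.128, 0.0998 and 0.0701). It held without DDI2-KO 2 (0.0313).

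The gene next to Zbtb26, Zbtb6, starts at almost the same place on the same strand, and the pair share exons, 4.73% of the exon bases of Zbtb26 and 8.84% of those of Zbtb6. Zbtb6, named here after its values were seen, stood at 8.68 and 7.77 CPM in WT and at 3.86 and 8.05 CPM in DDI2-KO. Its groups overlapped, since DDI2-KO 2 was at the WT level (log2 fold change -0.47, adjusted p = 0.433 by edgeR). The 250 bases before the annotated RefSeq start of Zbtb26 (GRCm38.p6, minus strand, chr2:37443173-37443422) are shown because Zbtb26 has the lowest log2 fold change of the family. In GENCODE they also lie just before the first exon of Zbtb6, whose RefSeq start is 12252 bases further inside the gene. The capitals mark the 1 GC box (GGGCGG or its reverse complement), the site that SP and KLF factors read.

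Zbtb26: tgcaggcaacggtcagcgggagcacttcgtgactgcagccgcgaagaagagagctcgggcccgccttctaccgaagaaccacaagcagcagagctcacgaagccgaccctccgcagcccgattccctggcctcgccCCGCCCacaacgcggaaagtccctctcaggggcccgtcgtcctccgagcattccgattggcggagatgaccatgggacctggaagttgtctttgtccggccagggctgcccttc

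Below these in order came Zbtb48, whose product TZAP binds telomere repeats. Its level was 11.8 and 11.7 CPM in WT and 7.80 and 5.70 CPM in DDI2-KO. The groups did not overlap, and the log2 fold change of -0.79 (SE 0.22) missed the threshold (adjusted p = 0.0856 by edgeR). It passed in 3 of 11 other settings, among them the GC and length offsets (-0.74, adjusted p = 0.0423), under which Zbtb20 did not. Zbtb37 was alike in size, at 8.09 and 7.41 CPM in WT and 3.86 and 5.09 CPM in DDI2-KO (-0.79, SE 0.23, adjusted p = 0.0969), but the same offsets brought it to -0.34 (adjusted p = 0.282). The exons of Zbtb37 overlap those of Serpinc1, the liver gene for antithrombin, on the opposite strand over 15.6% of their bases, and since the strand setting of the counting was not given, reads of the pair may not be told apart. Zbtb12 drew 89 and 80 WT reads against 45 and 31 DDI2-KO reads, a log2 fold change of -0.76 (adjusted p = 0.188 by edgeR), and 7.97% of its exon bases overlap the complement gene C2 on the opposite strand.

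At the other end stood Zbtb16, which encodes PLZF, a factor of germ cells and innate-like lymphocytes that glucocorticoids induce in many tissues. Its level was 5.21 and 3.33 CPM in WT, 13.0 CPM in DDI2-KO 1 and 4.79 CPM in DDI2-KO 2. Only DDI2-KO 1 was high, the other DDI2-KO library lying between the WT libraries. The means of 4.27 ± 1.32 and 8.90 ± 5.82 CPM (SD, n = 2 each) gave a log2 fold change of 1.06 (SE 0.49, adjusted p = 0.261 by edgeR). It was 0.17 without DDI2-KO 1 and 1.61 without DDI2-KO 2 (adjusted p = 0.0380), so that 1 library decided its size.

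Zbtb3 had a log2 fold change of 0.92 but only 8, 8, 11 and 12 reads (adjusted p = 0.337 by edgeR). Zbtb8os was steadier, at 15.5 and 16.9 CPM in WT and 19.7 and 21.1 CPM in DDI2-KO (0.34, adjusted p = 0.261). Zbtb34, Zbtb21 and Zbtb7c each had a log2 fold change of 0.32, with both DDI2-KO libraries above both WT libraries and adjusted p of 0.448, 0.423 and 0.631. For none of these genes was the difference shown to exceed the spread between replicates.

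**Figure D2:**
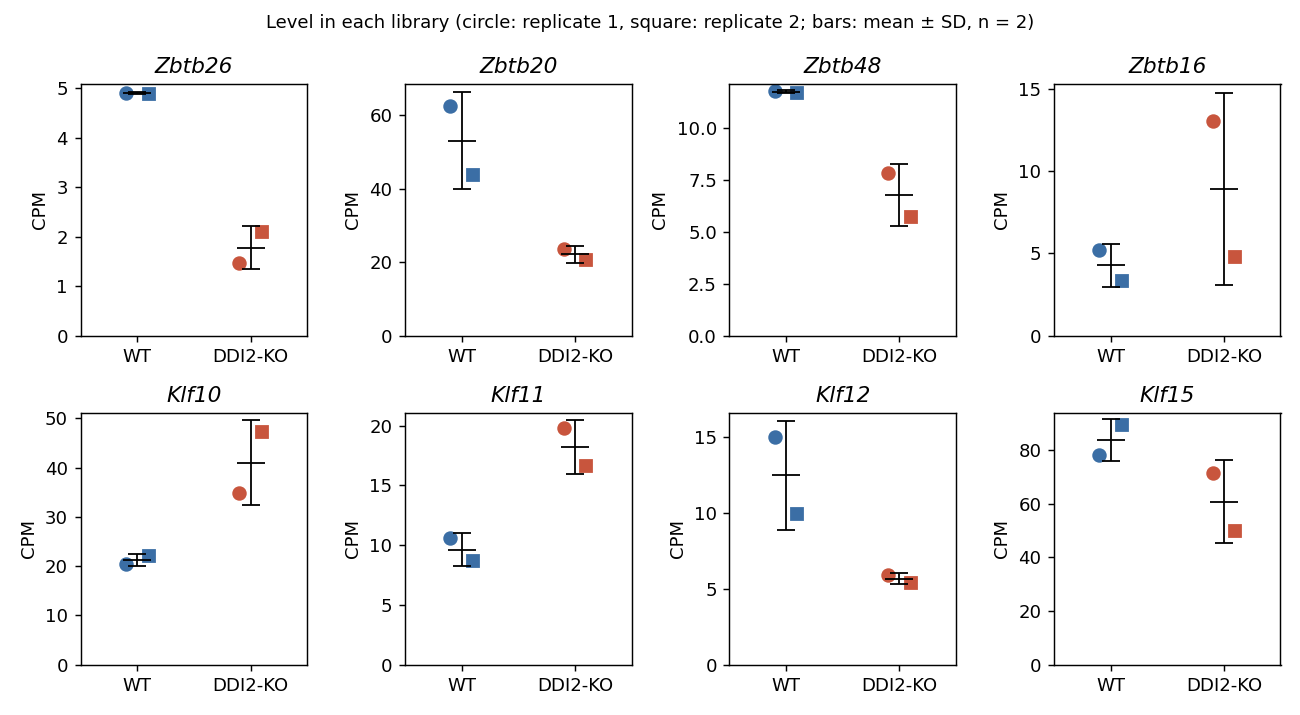
Level in TMM-scaled CPM of 8 members in each library, with the mean and SD of each group (n = 2) and circles for replicate 1 and squares for replicate 2. In Zbtb26, Zbtb20, Zbtb48, Klf12 and Klf15 both DDI2-KO points lie below both WT points, in Klf10 and Klf11 above. In Zbtb16 only DDI2-KO 1 stands clear at 13.0 CPM.

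The most abundant Zbtb genes per length did not pass the test. Per kilobase of exon, the highest mean over the 4 libraries was that of Zbtb7b, the gene of ThPOK, at 8.79 CPM per kilobase, before Zbtb43 at 5.30 and Zbtb22 at 5.11. Zbtb8os followed at 4.06 and Zbtb33, the gene of the methyl-CpG reader Kaiso, at 3.86. Zbtb20 was the 21st at 1.22 and Zbtb26 the 34th at 0.352, so per length the calls fell on genes in the middle and lower range of the family. The rank of Zbtb20 reflects its 30730 exon bases. Not divided by length, its mean of 37.5 CPM lay between those of Zbtb7b at 49.1 and Zbtb43 at 27.7, and that of Zbtb26 was 3.34. Zbtb7b itself was at 58.2, 45.9, 53.4 and 39.0 CPM in WT 1, WT 2, DDI2-KO 1 and DDI2-KO 2, with overlapping groups (log2 fold change -0.17, adjusted p = 0.658 by edgeR). Zbtb43 had a log2 fold change of 0.13, Zbtb22 of -0.35 and Zbtb33 of -0.17. These signs are not firm, since that of Zbtb7b turned to 0.024 and that of Zbtb33 to 0.080 with the GC and length offsets, and that of Zbtb43 to -0.0035 without WT 1.

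Zbtb9 was listed at 0 in every library, which allows up to 0.0880 to 0.133 CPM at these depths. The annotation places 84.4% of its exon bases in Ggnbp1 on the same strand, and 85.5% of the 50-base stretches in it recur in other genes. Reads in those bases would have been ambiguous to a counter that discards shared reads, so the 0 does not show that the gene was silent.

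Of the 16 Klf genes, 12 were tested, and 1, Klf10, rose in DDI2-KO at an adjusted p below 0.05. That is 8.33% of the tested Klf genes, where 1.33% of all genes were called higher. None was called lower by edgeR, where 1.2% of all genes were. At an unadjusted p below 0.05 there were 2 lower, Klf12 and Klf6, and 2 higher, Klf10 and Klf11, where 11.5% and 12% of all genes were. At an adjusted p below 0.10 there were 1 lower, Klf12, and 2 higher, Klf10 and Klf11, where 4.54% and 4.81% of all genes were. DESeq2 called 3 Klf genes, Klf10 and Klf11 higher and Klf12 lower, where it called 7.38% of all its genes, and limma-voom and limma-trend called 0, where they called 0.993% and 1.01% of all genes. Klf14 and Klf17 had 0 reads in every library, Klf5 had 3, 5, 2 and 7 reads in WT 1, WT 2, DDI2-KO 1 and DDI2-KO 2, and Klf8 had 3, 1, 1 and 0.

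Klf10 and Klf11 are close relatives that were first described as early genes induced by TGF-beta, and both recruit the SIN3A corepressor. Klf10 (chromosome 15, 38291463 to 38300706, minus strand) was at 20.3 and 22.1 CPM in WT and at 34.8 and 47.1 CPM in DDI2-KO. Both DDI2-KO libraries were above both WT libraries, and the WT libraries differed little. The means were 21.2 ± 1.25 and 41.0 ± 8.68 CPM (SD, n = 2 each), with a log2 fold change of 0.95 (SE 0.19, adjusted p = 0.0467 by edgeR). The call lay close to the threshold and was lost with upper-quartile scaling (adjusted p = 0.0525), with a minimum mean of 1 CPM (0.0507), without robust estimation (0.0595), and without WT 1 (0.206) or WT 2 (0.125).

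Klf11 (chromosome 12, 24651274 to 24662789, plus strand) was at 10.6 and 8.64 CPM in WT and at 19.8 and 16.6 CPM in DDI2-KO. The groups were as far apart as those of Klf10 on the log2 scale, at 0.92 (SE 0.20), and the adjusted p of 0.0519 by edgeR lay just above the threshold. Across the other settings with all 4 libraries its adjusted p ran from 0.00196 to 0.0692, below 0.05 in 5 of 11. The pair of relatives were thus both higher in both DDI2-KO libraries, by 1.93-fold for Klf10 and 1.90-fold for Klf11 on the means.

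Klf12, a repressor that acts through CtBP, had the lowest log2 fold change of the family. Its gene lies on the minus strand of chromosome 14 (99870632 to 100284679). Its level was 15.0 and 9.94 CPM in WT and 5.91 and 5.40 CPM in DDI2-KO, from 505, 307, 153 and 124 reads. The DDI2-KO libraries were close to each other and both below WT, whose libraries differed by more. The log2 fold change was -1.14 (SE 0.25), with an adjusted p of 0.0538 by edgeR, and it was below 0.05 in 4 of 11 other settings, with a range of 0.00066 to 0.0786.

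**Figure D3:**
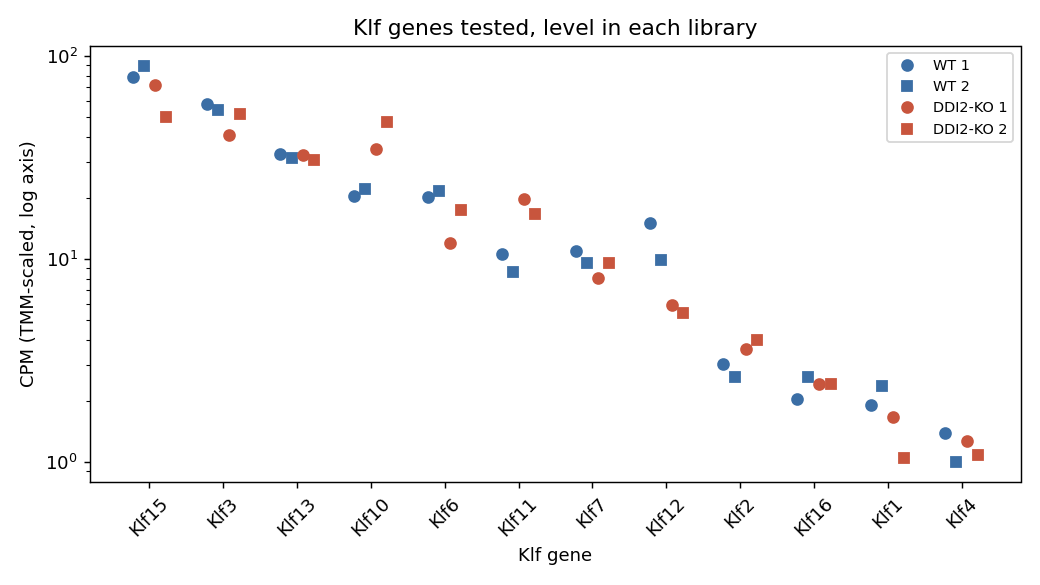
Level in TMM-scaled CPM of the 12 tested Klf genes in each of the 4 libraries, on a log axis. Klf10 at 34.8 and 47.1 CPM and Klf11 at 19.8 and 16.6 CPM in DDI2-KO stand above their WT points, Klf12 at 5.91 and 5.40 CPM stands below, and Klf15 runs from 78.2 and 89.4 CPM in WT to 71.6 and 49.96 CPM in DDI2-KO.

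Klf15 was by far the most abundant Klf gene per length, at 25.9 CPM per kilobase of exon over the 4 libraries, before Klf10 at 7.44, Klf3 at 4.54, Klf13 at 4.23 and Klf6 at 4.06. Its level was 78.2 and 89.4 CPM in WT and 71.6 and 49.96 CPM in DDI2-KO. Both DDI2-KO libraries were below both WT libraries, but they lay farther from each other than DDI2-KO 1 lay from WT 1. The log2 fold change of -0.46 (SE 0.20) did not pass (adjusted p = 0.217 by edgeR). Klf6, an early gene of liver injury, was at 20.2 and 21.7 CPM in WT and at 11.98 and 17.5 CPM in DDI2-KO (-0.51, adjusted p = 0.197), and Klf3, which like Klf12 binds CtBP, had -0.27 (adjusted p = 0.374). These sizes changed with the DDI2-KO library left out. Without DDI2-KO 1 and without DDI2-KO 2 the log2 fold change was -0.74 and -0.22 for Klf15, -0.26 and -0.80 for Klf6, and -0.10 and -0.45 for Klf3.

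Klf2 and Klf4 are known from endothelium, and Klf1 drives the globin genes of red cell precursors. Klf2 differed by a log2 fold change of 0.42 (adjusted p = 0.357 by edgeR) and Klf4 of -0.024 (adjusted p = 0.977), the latter turning to 0.024 with library totals. Klf1 drew 64 and 73 WT reads against 43 and 24 DDI2-KO reads (-0.65, adjusted p = 0.310), with -1.02 without DDI2-KO 1 and -0.35 without DDI2-KO 2. Beside it, the 5 tested erythroid markers had a negative log2 fold change (4 of 5 with library totals) and summed to 94.7 to 180 CPM in WT and 61.5 to 72.7 CPM in DDI2-KO, with Hba-a1 called lower (-1.94, adjusted p = 0.0338). The 8 sinusoidal endothelial markers summed to 433 to 469 CPM in WT and 414 to 434 CPM in DDI2-KO, 4 with each sign and Stab2 called lower (-1.10, adjusted p = 0.0288). Their part in the values of Klf1, Klf2 and Klf4 was not tested. Klf13 and Klf16 differed little, with -0.025 and 0.061.

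Promoters of the Klf genes were searched for short motifs in the RefSeq promoter table (GRCm38.p6), which holds 250 bases before and 50 after the start of each transcript, on both strands and with matches allowed to overlap. Of the 57 members 48 had an entry, and Klf5, Klf10, Klf14, Klf16, Zbtb7c, Zbtb10, Zbtb16, Zbtb40 and Zbtb48 had none. The GC box GGGCGG was found in 11 of 13 Klf promoters (84.6%) and 33 of 49 Zbtb promoters (67.3%), against 35.7% of all 32851. The CACCC box CCACCC stood in 61.5% of Klf and 34.7% of Zbtb promoters against 31.5% of all. The E-box CACGTG, which clock factors read, was found in 4 Klf promoters (30.8%), those of Klf11, Klf15, Klf4 and Klf6, and in 12.2% of Zbtb promoters against 7.15% of all. The letters TGACNNNGC, read by NRF1 and other CNC-bZIP factors, were found in those of Klf15, Klf17, Klf3 and Klf6 (30.8%) and in 0 of the 49 Zbtb promoters, against 12.4% of all. Of these 4, Klf15, Klf3 and Klf6 were tested and edgeR called 0, where 2.53% of all genes were called. Each had both DDI2-KO libraries below both WT libraries, as 27.7% of all genes tested had. Their log2 fold changes were -0.46, -0.27 and -0.51. A match is a description of letters and not of binding.

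The 250 bases before the start are shown for Klf11 (plus strand, chr12:24651121-24651370), which stood above WT, and for Klf15 (plus strand, chr6:90462326-90462575), the most abundant Klf gene. Capitals mark the E-box, the GC box and, near the 3′ end of the Klf15 stretch, the TGACNNNGC letters read on the opposite strand. That of Klf11 holds 1 E-box and 4 GC boxes, some of which overlap, and that of Klf15 holds 2 E-boxes and 1 GC box.

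Klf11: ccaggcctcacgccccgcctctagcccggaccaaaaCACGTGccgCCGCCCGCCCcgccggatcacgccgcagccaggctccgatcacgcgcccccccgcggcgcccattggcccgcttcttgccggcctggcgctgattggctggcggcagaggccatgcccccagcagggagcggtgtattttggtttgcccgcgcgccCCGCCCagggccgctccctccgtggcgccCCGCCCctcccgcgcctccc

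Klf15: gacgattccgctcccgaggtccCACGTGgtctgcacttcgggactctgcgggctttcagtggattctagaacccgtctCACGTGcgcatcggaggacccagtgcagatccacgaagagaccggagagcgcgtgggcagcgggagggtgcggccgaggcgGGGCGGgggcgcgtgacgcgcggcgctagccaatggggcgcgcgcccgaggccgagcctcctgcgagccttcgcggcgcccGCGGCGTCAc

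Taking each family whole, 25 of 38 tested Zbtb genes and 8 of 12 tested Klf genes had a negative log2 fold change, or 65.8% and 66.7%, where 51.3% of all genes tested had and 48.7% had a positive one. The signs depended on the scaling, since with library totals 22 of 38 Zbtb and 6 of 12 Klf genes were negative, or 57.9% and 50%, where 47.1% of all genes were. The median was -0.12 in each family, against -0.015 over all genes. Both DDI2-KO libraries lay below both WT libraries in 11 Zbtb genes (28.9%) and 5 Klf genes (41.7%), where 27.7% of all genes tested did. They lay above in 7 Zbtb (18.4%) and 3 Klf genes (25.0%), where 28% of all genes did. Of the protein-coding genes tested, 49.4% had a negative log2 fold change, with a median of 0.0065. Both DDI2-KO libraries lay below both WT libraries in 26.2% of them and above in 29.2%. edgeR called 0.904% of them lower and 1.39% higher. Without the archease gene the Zbtb median was -0.17. The summed Zbtb level was 479 and 454 CPM in WT and 389 and 426 CPM in DDI2-KO, and the summed Klf level 254 and 256 CPM in WT and 234 and 238 CPM in DDI2-KO. In each family both DDI2-KO sums were thus below both WT sums. Other values moved the same way between the groups. The 5 nuclear-retained RNAs listed, Malat1, Neat1 and Xist among them, all had both DDI2-KO libraries below both WT libraries. Of the 5, 3 were called lower, where 1.2% of all genes were. They summed to 537 to 741 CPM in WT and 97.0 to 219 CPM in DDI2-KO. Reads outside annotated features came to 5.11% and 4.70% of gene reads in WT and to 2.53% and 3.65% in DDI2-KO. Their part in the Zbtb and Klf values was not tested.

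The Zbtb genes with AT-rich transcripts were lower in DDI2-KO 1 than in DDI2-KO 2. In the 12 tested Zbtb genes with under 45% GC in their longest transcript, all 12 were below the WT mean in DDI2-KO 1 (median log2 ratio -0.62) and 5 of 12 in DDI2-KO 2 (median 0.045). Of protein-coding genes in that range, 2261 of 3362 were below it in DDI2-KO 1 (median -0.22) and 1597 in DDI2-KO 2 (median 0.033). In 11 of these 12 genes DDI2-KO 2 was above DDI2-KO 1, with a median log2 ratio of 0.62, where protein-coding genes of that GC range had 0.23 and 2553 of 3362 were above, and 50% of all genes tested were. In the 15 Zbtb genes with over 52% GC, DDI2-KO 2 was above DDI2-KO 1 in 4 of 15 (median -0.17, against -0.23 for protein-coding genes). Against the WT mean, 9 of these 15 were lower in DDI2-KO 2 (median -0.27) and 8 in DDI2-KO 1 (median -0.083). Of protein-coding genes in that range, 2928 of 4686 were lower in DDI2-KO 2 (median -0.15) and 1913 in DDI2-KO 1 (median 0.088). Both called Zbtb genes, Zbtb26 at 39.7% and Zbtb20 at 43.0% GC, were among the 12, and Zbtb20 was the 1 of them that was lower in DDI2-KO 2 than in DDI2-KO 1. The bounds of 45% and 52% were set after the values were seen.

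Over the 38 Zbtb genes, Spearman's rho between GC content and the log2 ratio of DDI2-KO 2 over DDI2-KO 1 was -0.741, over the 12 Klf genes -0.517, and over 12715 protein-coding genes -0.502. Between the WT libraries the same measure was -0.0126 in Zbtb genes. The points share their libraries, so these are descriptions of the 4 libraries. Without DDI2-KO 1 the Zbtb median turned to 0.078, and offsets for GC and length gave -0.0045. The negative sign of the Zbtb median over all 38 genes therefore depended on DDI2-KO 1 being included. In the Zbtb genes with over 52% GC, however, the median log2 fold change was -0.17 and DDI2-KO 2 was the lower DDI2-KO library. Longer protein-coding transcripts had lower log2 fold changes (Spearman's rho -0.18). The median transcript was 5037.5 bases in tested Zbtb genes and 3295 in all genes tested. Of protein-coding genes, 1197 of 1838 at 6000 bases or more were negative (median -0.15), and 2231 of 5226 below 3000 (median 0.088). In Zbtb genes 8 of 12 at 6000 or more were negative (median -0.17). From 3000 to 6000 it was 12 of 18 (-0.12), and 5 of 8 below 3000 (-0.13). The parts of GC content and length in the group difference were not tested beyond these fits. The Klf median was between -0.28 and -0.096 with any library left out.

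**Figure D4:**
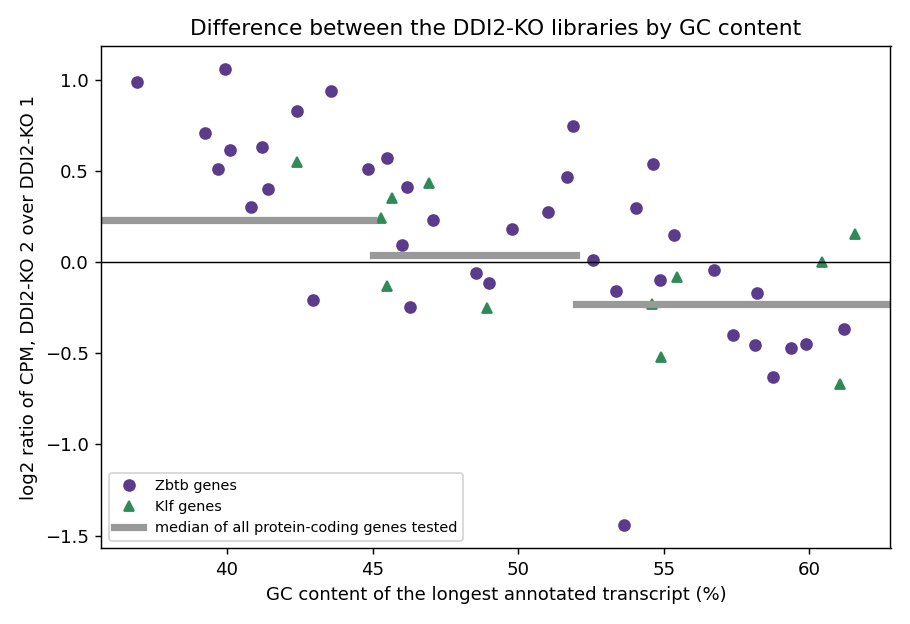
Log2 ratio of TMM-scaled CPM in DDI2-KO 2 over DDI2-KO 1 against the GC percentage of the longest transcript, for each tested Zbtb and Klf gene, with grey lines for the median of all protein-coding genes in 3 GC ranges. Zbtb points fall from a median of 0.62 below 45% GC to -0.17 above 52% GC, and Zbtb16 lies at the bottom.

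Related genes were taken from lists drawn up with earlier results of these data known. Of all genes tested, 2.53% were called, and 11.5% were lower and 12% higher at an unadjusted p below 0.05. Of the other members of the SP/KLF family 5 of 9 were tested and 0 were called, with 1 lower at an unadjusted p below 0.05. Their median log2 fold change was -0.27. Sp1 was at 55.8 and 55.0 CPM in WT and 40.1 and 54.9 CPM in DDI2-KO, so DDI2-KO 1 alone was low, and Sp3 had the same pattern. Of 10 BTB zinc finger factors with other names, such as Bcl6, 0 were called by edgeR, 0 had an unadjusted p below 0.05, and the median was -0.020. Bcl6 spread most, with 6.39 and 36.6 CPM in WT and 25.4 and 13.1 CPM in DDI2-KO. DESeq2 and both limma fits called 0 genes of either list.

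Among 22 corepressors and partners of these factors edgeR called 0, where 2.53% of all genes were called. At an unadjusted p below 0.05 there were 5 lower and 1 higher, where 11.5% and 12% of all genes were. In the list 12 had a negative and 10 a positive log2 fold change (median -0.17), where 51.3% of all genes had a negative one. DESeq2 and both limma fits called 0 here too. The lowest adjusted p was that of Gps2, a subunit of the NCOR complex, at 18.2 and 20.5 CPM in WT and 10.8 and 12.5 CPM in DDI2-KO (-0.73, adjusted p = 0.0702 by edgeR). Ncor1, the core of that complex, was at 106 and 93.6 CPM in WT and 79.4 and 84.8 CPM in DDI2-KO (adjusted p = 0.337).

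Of the 10 listed genes of amino acid use linked to KLF15, 1 was called lower, where 1.2% of all genes tested were. All 10 had a negative log2 fold change (median -0.22) with TMM factors, where 51.3% of all genes had. With library totals 6 of 10 were negative, where 47.1% of all genes were. Both DDI2-KO libraries lay below both WT libraries in 3 of the 10, close to the 27.7% of all genes. The called gene was Slc7a2, a transporter of cationic amino acids, at 435 and 510 CPM in WT and 207 and 219 CPM in DDI2-KO (-1.15, SE 0.18, adjusted p = 0.0295 by edgeR). The groups were well apart in Slc7a2, while Otc, Asl and Tat of the same list had log2 fold changes of -0.0039, -0.0088 and -0.037. Of 9 tested genes linked to ZBTB20 or other ZBTB factors in liver, 1 was called higher, where 1.33% of all genes were. It was G6pc, the last enzyme of glucose production, at 119 and 71.5 CPM in WT and 259 and 409 CPM in DDI2-KO (1.81, SE 0.32, adjusted p = 0.0429). Of the 9, 5 had a negative and 4 a positive log2 fold change, from -3.51 to 1.81. At an unadjusted p below 0.05 edgeR had 0 lower and 1 higher, where 11.5% and 12% of all genes were. Afp, the gene ZBTB20 is best known to repress, drew 43 and 49 WT reads against 30 and 25 DDI2-KO reads (log2 fold change -0.35, adjusted p = 0.598).

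Klf10 and Klf15 follow the liver clock, and Klf genes and Zbtb16 respond to glucocorticoids, so these lists are set beside them. Of 18 clock genes, edgeR called 3, where 2.53% of all genes were called, while DESeq2 called 7, limma-voom 2 and limma-trend 1. Per1 fell by 1.27 on the log2 scale (adjusted p = 0.0438), as did Nr1d2 by 1.08 (adjusted p = 0.0289), and Nfil3, the repressor E4BP4, gained 1.18 (adjusted p = 0.0345). The median of the list was -0.41. Within WT the clock output gene Dbp stood at 39.9 and 91.6 CPM and Per3 at 12.9 and 41.7 CPM, so the WT livers differed in these genes. Of 12 glucocorticoid-induced genes, edgeR called Per1 and Mt1 lower and Dusp1 higher, where 1.2% and 1.33% of all genes were. DESeq2 called 4 of the 12, limma-voom 2 and limma-trend 3, against 7.38%, 0.993% and 1.01% of all genes. Mt1 is, with Mt2, the strongest decrease that the study reported. Dusp1 was at 29.4 and 21.8 CPM in WT and 75.6 and 150 CPM in DDI2-KO (adjusted p = 0.0438 by edgeR). Fkbp5, an early target of the glucocorticoid receptor, stood at 0.11 on that scale (adjusted p = 0.716). The hour of collection was not given in the sources used here, and its part in the values of Klf10, Klf11 and Klf15 was not tested.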

How the data were processed

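Messenger RNA of 4 livers was measured, 2 WT and 2 DDI2-KO. The deposited values are read counts per gene, unnormalized, 1 file a library. The submitters' processing notes name cutadapt 1.8, STAR 2.5.2b, HTSeq 0.6.1 and GRCm38, with no roles. The strand setting and annotation release were not given in the sources used here. Rows naming no gene were left out of library sizes. Reads assigned to no feature were 2.53% to 5.11% of gene reads and ambiguous reads 2.50% to 3.66%.

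Genes were named from GENCODE (48349 of 48709 identifiers matched). edgeR 4.0.16 fitted a quasi-likelihood model with TMM factors, its default expression filter and robust estimation to all 13699 genes passing the filter. P-values were adjusted by Benjamini-Hochberg over all of them, and called means below 0.05. The fitting scripts were tested on simulated data of the same size, in which sizes of change were recovered without bias, many of the smaller changes were missed, and the share of false calls was well above the nominal level, so a call here is less certain than its adjusted p. Alternatives used DESeq2 1.42.0, limma 3.58.1 (the test the study used), other scalings, filters, offsets and libraries left out, in R 4.3.3. Levels per length use merged exons. Counts of the 2 libraries in a group were set against sampling noise by a chi-square over genes, which per degree of freedom was 64.7 in WT and 34.8 in DDI2-KO, and the libraries were counted apart.

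Members and gene lists were chosen with earlier results of these data known. Named members were those past the threshold, those with the largest changes and the most abundant per length in each family, those whose call changed with the setting, those with 0 reads, and others only as said. Of the related genes, Otc, Asl, Tat, Gps2, Ncor1, Bcl6, Dbp, Per3, Fkbp5 and Afp were named after their values were seen. Tf was not found by its symbol among the hepatocyte markers. RefSeq promoters came from GRCm38.p6. Marker lists of Kupffer, stellate, bile duct, T and NK, B and dendritic cells had 0 genes called by edgeR, with 1, 3, 0, 1, 0 and 1 lower and 1, 0, 1, 0, 1 and 0 higher at an unadjusted p below 0.05. Of all genes tested, 11.5% were lower and 12% higher at that p. DESeq2 called 1 Kupffer and 1 B cell marker. No pairing of WT and DDI2-KO libraries by replicate number was given in the sources used here.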

Additional observations from a re-analysis of the deposited data

How the results depend on the processing

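The direction of Zbtb20, Zbtb26, Klf10, Klf11 and Klf12 was the same in each of the settings tried, and their calls were not. The count of Zbtb genes called lower (2) was 0 with limma-voom and 0 with limma-trend, 1 without robust estimation, 4 without the filter on low counts, 4 at an adjusted p below 0.10, and 0 to 1 with a library left out. With the GC and length offsets it was again 2, but Zbtb26 and Zbtb48 in place of Zbtb26 and Zbtb20. Where a group kept 1 library, that library was assumed to vary like the other group. Zbtb genes called higher (0) were 0 to 1 with a library left out. Klf genes called lower (0) were 1 with DESeq2, without the filter, with the GC and length offsets and at 0.10, and 0 to 1 with a library left out. Klf genes called higher (1) were 2 with library totals, DESeq2, no filter, the offsets and 0.10, 0 with upper-quartile factors, both limma fits, a mean of at least 1 CPM and no robust estimation, and 0 to 2 with a library left out. The median log2 fold change ran from -0.23 to 0.078 in Zbtb genes and from -0.28 to -0.096 in Klf genes with a library left out, the highest Zbtb value being that without DDI2-KO 1 and the lowest Klf value that without WT 2. Over all genes, 346 calls became 911 with DESeq2, 136 with limma-voom, 139 with limma-trend, 1544 without the filter, 152 without robust estimation, 839 with the offsets, 1281 at 0.10, and 153 to 631 with a library left out, fewest without WT 1 and most without DDI2-KO 2. With upper-quartile factors 126 of 317 calls were higher, against 182 of 346.

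With the replicate number as a block, 1108 genes were called, of which 3 were Zbtb genes lower, 1 a Zbtb gene higher (Zbtb16), 1 a Klf gene lower (Klf12) and 2 Klf genes higher (Klf10 and Klf11). The differences of replicate 1 from replicate 2 correlated between the groups at only 0.0588. That value cannot settle whether libraries with the same number share a litter or a batch, and no such pairing was given in the sources used here.

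Signs of members with small changes turned. Klf13 became 0.023 with library totals and 0.067 with the offsets, Klf4 0.024 with library totals, Zbtb33 0.080 and Zbtb7b 0.024 with the offsets. With a library left out, Klf13 ran from -0.064 to 0.025, Klf4 from -0.24 to 0.24, Klf16 from -0.10 to 0.25, Zbtb33 from -0.55 to 0.15, Zbtb43 from -0.0035 to 0.27 and Zbtb7b from -0.41 to 0.045. The causes were not tested. With 22501208 reads in the smallest library, members below 0.133 CPM were under the limit of 3 reads.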
